A study of Homo sapiens with 40 samples.

Results

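The interferon regulatory factors (IRFs) are a family of transcription factors, and 8 of its genes were followed here: IRF1, IRF2, IRF3, IRF4, IRF5, IRF7, IRF8 and IRF9. They were taken from the count table by exact gene name, which gave 8 of the 44584 named rows. Polyadenylated RNA was sequenced from BT474, an established HER2-positive breast ductal carcinoma line that is sensitive to the anti-HER2 antibody trastuzumab, and from BT474R, its trastuzumab-resistant derivative. BT474R is a single clone derived from BT474 kept in the antibody for several weeks, so it stands for 1 resistant line. Both lines were serum starved and collected untreated (T0), or 1, 12 and 24 h after epidermal growth factor (EGF, 50 ng/mL), heregulin (HRG, 10 ng/mL) or water as vehicle. This gave 20 groups of 2 libraries each, 40 in all. EGF is a ligand of EGFR, and HRG is a ligand of HER3 and HER4.

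Proteins of this family share a DNA-binding domain that reads GAAA-rich elements, among them the interferon-stimulated response element. IRF3, IRF5 and IRF7 are held inactive in the cytoplasm until kinases downstream of virus sensors phosphorylate them, after which they switch on interferon genes. IRF9 is the DNA-binding subunit of ISGF3, the complex through which type I interferon acts. IRF1 is induced by interferon gamma and activates antigen-presentation and guanylate-binding protein genes, while IRF2 binds the same elements and opposes it at many of them. IRF4 and IRF8 belong mainly to lymphoid and myeloid cells.

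The promoters of IRF1 and IRF9, the members with the largest responses below, are shown because each holds 1 match to the palindrome read by STAT dimers, in capitals (TTC, any 3 bases, GAA; both strands searched). Each run is the 250 bases before the RefSeq start on GRCh38.p14, written 5′ to 3′ along the gene.
IRF1, chr5:132490774-132491023, minus strand: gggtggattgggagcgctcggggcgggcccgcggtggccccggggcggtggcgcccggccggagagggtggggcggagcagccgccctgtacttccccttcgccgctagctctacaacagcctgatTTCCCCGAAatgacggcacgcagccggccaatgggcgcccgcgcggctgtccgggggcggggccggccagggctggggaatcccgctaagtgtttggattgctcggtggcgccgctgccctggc
IRF9, chr14:24161015-24161264, plus strand: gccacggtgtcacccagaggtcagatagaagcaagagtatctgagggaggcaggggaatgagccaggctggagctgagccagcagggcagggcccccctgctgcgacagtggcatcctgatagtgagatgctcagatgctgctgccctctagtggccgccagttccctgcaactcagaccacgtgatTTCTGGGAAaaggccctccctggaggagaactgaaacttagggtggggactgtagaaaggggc
The match begins 124 bases before the start of IRF1 and 63 bases before that of IRF9. Of all 35116 promoters of this length in the RefSeq table, 2306 (6.57%) held such a match. Promoters of 5 of the 8 members were in the table, and the windows of IRF4, IRF5 and IRF8 held no match. The IRF8 windows (chr16:85902580-85902829 and 85902765-85903014) lay inside the gene, after the GENCODE start given below (85899162). The bases before that start of IRF8 were not searched. The core of the interferon-stimulated response element (GAAA, any 2 bases, GAAA) was in none of the members' windows and in 1061 (3.02%) of all promoters. A match is a description of these letters and not a binding site.

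Libraries held 19200632 to 29098915 counts in BT474 and 16794594 to 33387936 in BT474R, so that 3 counts, taken as the limit of detection, came to 0.103 to 0.156 CPM, the unit for counts scaled by library size, and 0.0899 to 0.179 CPM in the same order. Replicates differed by more than counting noise in all 20 groups, most in HRG-BT474R at 24 h (mean chi-square per gene 15.9). The 11 luminal epithelial markers were above 3 counts in all 40 libraries. The pan-leukocyte gene PTPRC reached at most 0.0966 CPM, and the 5 B-lymphocyte markers together 0 to 0.481 CPM. The 5 myeloid markers together came to 1.54 to 5.55 CPM, and CD68 among them was above 3 counts in all 40 libraries. The fibroblast markers summed to 171 to 288 CPM in BT474R and 74.9 to 106 CPM in BT474, nearly all of it COL1A1, as COL3A1, PDGFRB and DCN reached at most 0.740, 0.0481 and 0.0354 CPM. The table also carries rows with a gene name followed by a copy number, which held 2.96% of all counts and included IRF7_1 and IRF9_1. How reads were divided between a plain row and its copy row is not given in the sources used here, so levels of IRF7 and IRF9 are those of the plain row unless stated.

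IRF3 and IRF2 were the abundant members of the family. Per kilobase of transcript (CPM per kb), the level at T0 was 28.3 ± 0.668 (SD, n = 2) in BT474 and 37.1 ± 0.854 in BT474R for IRF3, and 15.0 ± 0.789 and 10.6 ± 0.404 for IRF2. IRF9 followed at 2.49 ± 0.144 in BT474 and 3.08 ± 0.263 in BT474R. In BT474 the next 3, IRF7 (1.25 and 1.51 CPM per kb in its replicates), IRF1 (1.26 and 1.42) and IRF5 (1.09 and 1.28), overlapped and could not be ranked. In BT474R the order ran IRF5 (1.64 and 1.77), IRF7 (0.921 and 1.27), then IRF8 (0.457 and 0.594) and IRF1 (0.491 and 0.538), of which the last pair overlapped. With the copy rows added, IRF9 came to 8.79 CPM per kb in BT474 and 10.8 in BT474R, near the 10.6 of IRF2 there, and IRF7 to 2.11 and 1.61.

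**Figure D1:**
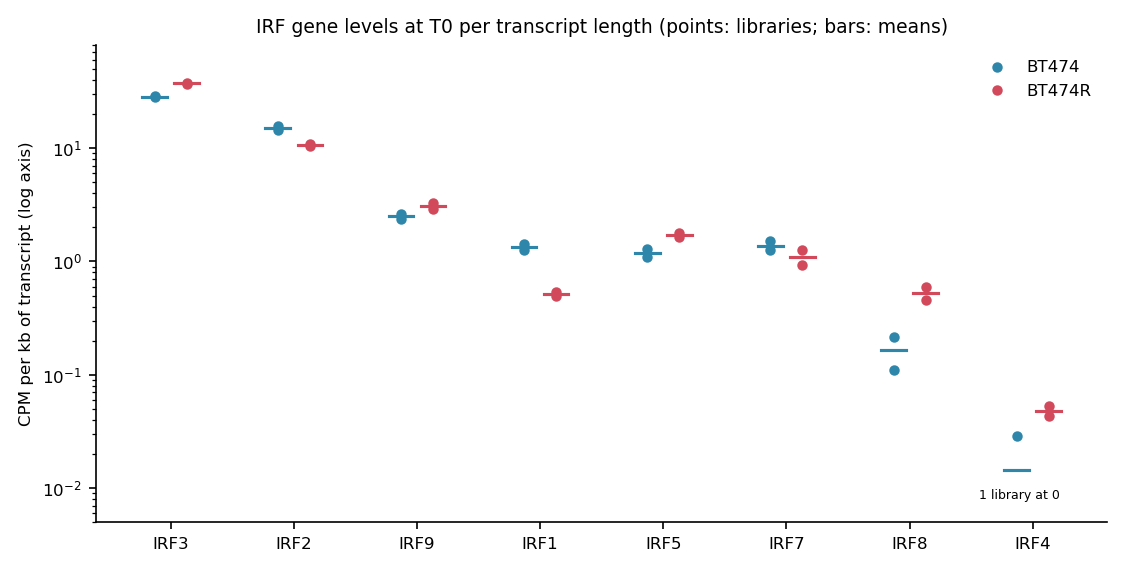
Level of each IRF gene at T0 in CPM per kilobase of transcript (log axis), with 1 point per library, a bar at each mean and the 2 lines in separate colours. IRF3 and IRF2 lie above the other members in both lines, IRF4 lies lowest, and IRF1 is lower in BT474R than in BT474. IRF7 and IRF9 are drawn from their plain rows. With its copy row added, IRF9 in BT474R came to 10.8, near the 10.6 of IRF2. The BT474 library in which IRF4 was at 0 cannot be drawn on the log axis.

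IRF1 (chromosome 5, 132481609 to 132490773, minus strand; this and the positions below are those of the GENCODE v44 canonical transcript on GRCh38) was the member that EGF raised first and most in BT474R. At 1 h it stood at 15.5 and 11.4 CPM in the 2 EGF-BT474R libraries against 2.02 and 3.70 CPM with vehicle. At 12 h the values were 19.8 and 14.3 CPM against 1.47 and 2.33 CPM, and at 24 h 15.5 and 14.0 CPM against 1.49 and 2.38 CPM. At each time both EGF libraries lay above both vehicle libraries. The log2 fold change was 2.18 (SE 0.22, edgeR adjusted p = 1.7e-06) at 1 h, 3.13 (SE 0.23, adjusted p = 4.7e-09) at 12 h and 2.94 (SE 0.24, adjusted p = 1.1e-08) at 24 h. In folds this was 4.54 (95% interval 3.37 to 6.12), 8.73 (6.35 to 12.0) and 7.69 (5.54 to 10.7). At 1 h IRF1 was the 1 member called, where 0.457% of all tested genes were called, and the fold there depended most on the vehicle libraries (log2 1.86 without replicate 1 and 2.73 without replicate 2). Nothing in the labels says whether the 2 libraries of a group came from separate cultures, so p-values measure the spread between these samples only. In such bulk libraries, fewer cells with a transcript and less of it per cell cannot be told apart.

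**Figure D2:**
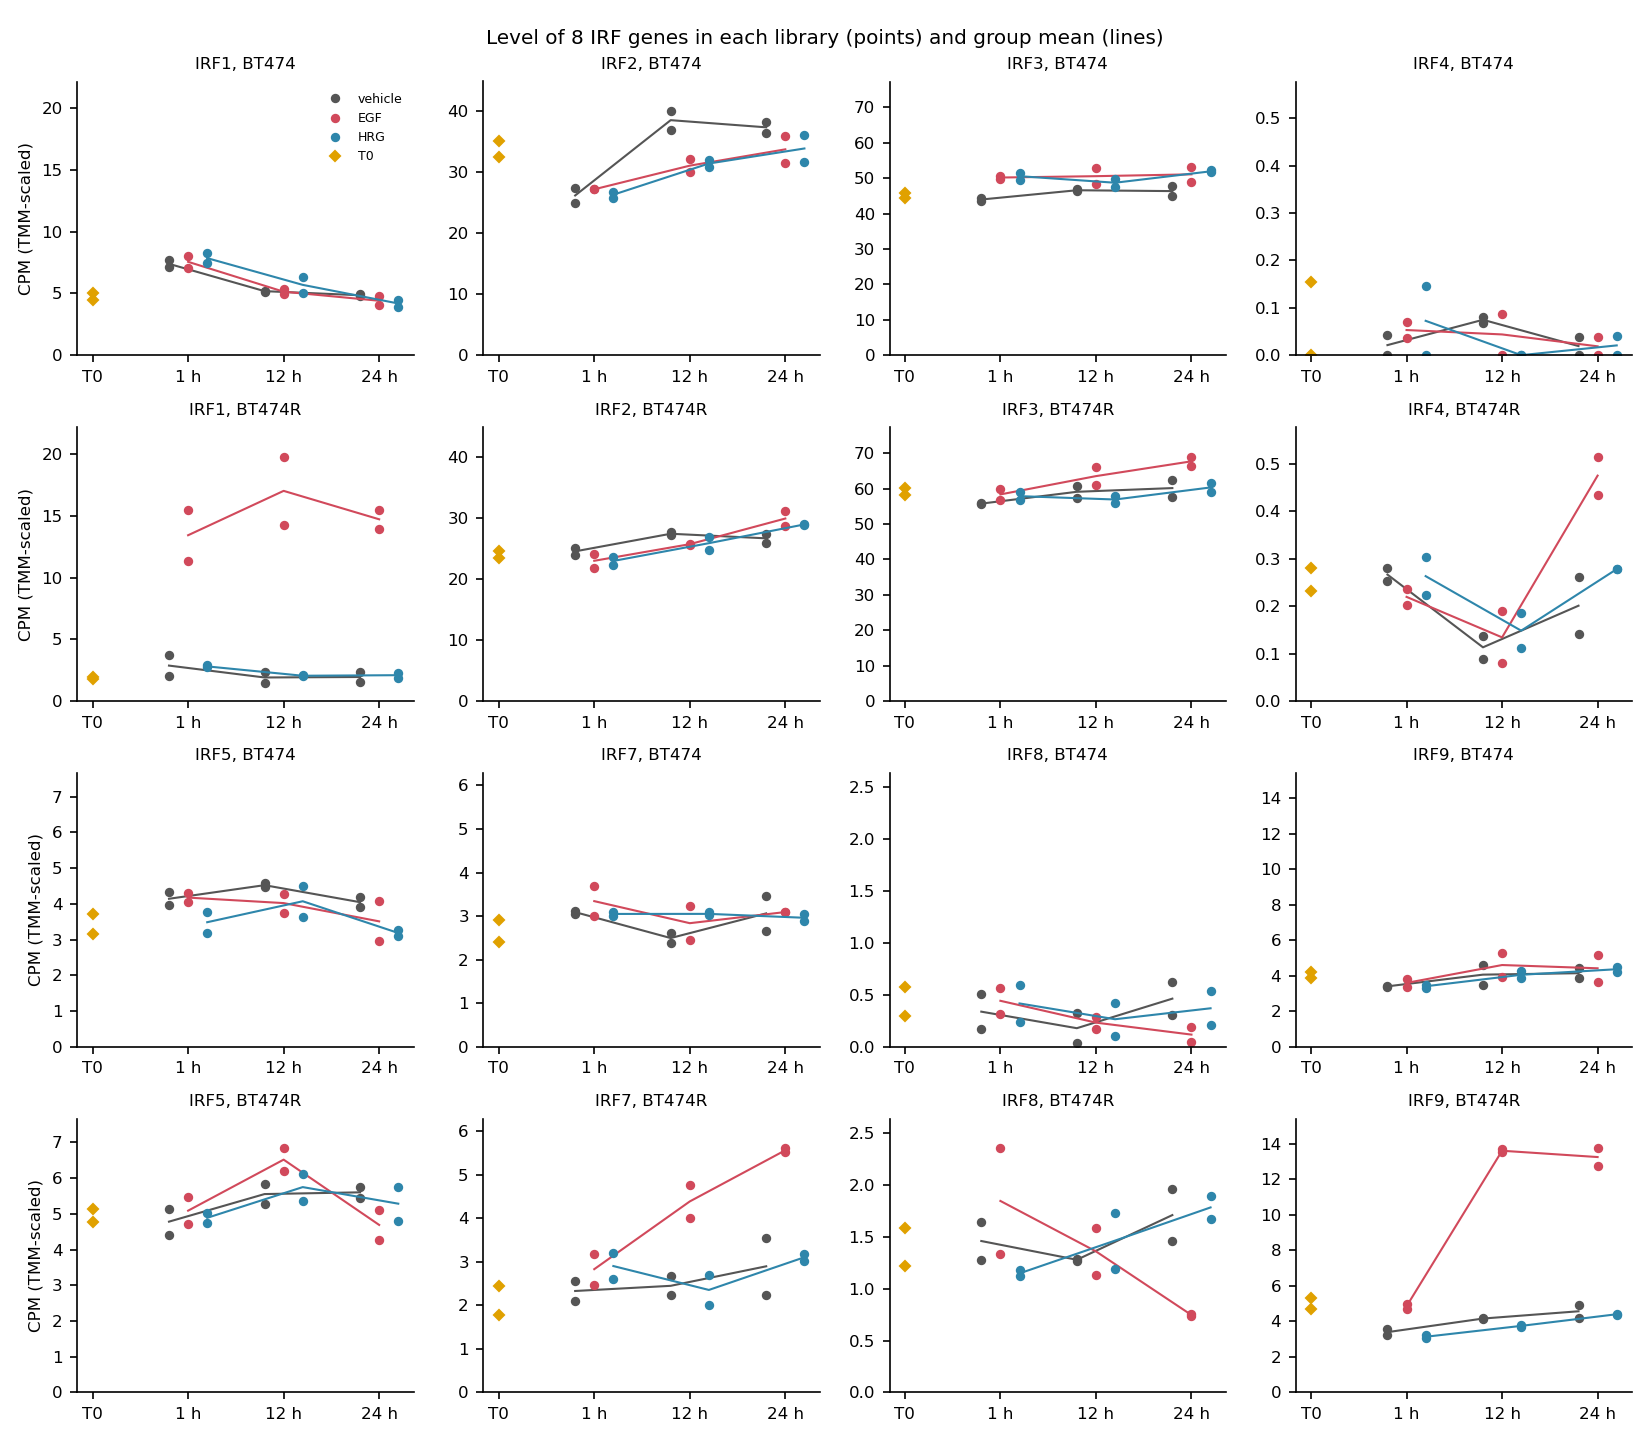
CPM of each IRF gene in every library of BT474 and BT474R (points, 1 panel per gene and line; lines join group means), by time after EGF, HRG or vehicle, with T0 at the left. IRF1, IRF9 and IRF7 lie above vehicle in EGF-BT474R at 12 h and 24 h, where IRF1 reached 14.0 to 19.8 CPM, and in the HRG libraries of that line they lie near vehicle.

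IRF9 (chromosome 14, 24161265 to 24166565, plus strand), the DNA-binding subunit of ISGF3, rose in the same EGF-treated cells but later. At 12 h it read 13.5 and 13.7 CPM in EGF-BT474R against 4.13 and 4.19 CPM with vehicle. At 24 h it read 12.7 and 13.8 CPM against 4.93 and 4.21 CPM. The groups did not overlap, and the log2 fold change was 1.70 (SE 0.12, adjusted p = 1.1e-09) at 12 h and 1.52 (SE 0.12, adjusted p = 3.5e-09) at 24 h. At 1 h the EGF libraries held 4.99 and 4.71 CPM against 3.58 and 3.21 CPM, a log2 difference of 0.52 (SE 0.13) that missed the threshold (adjusted p = 0.12). With the copy row added the 1 h difference was also 0.52, but its SE of 0.11 brought it past the threshold (adjusted p = 0.034). At T0 BT474R held 4.71 and 5.31 CPM, so EGF at 1 h lay near T0 and vehicle at 1 h lay below it. The copy row read 12.3 and 12.9 CPM at T0, 12.5 and 14.5 CPM with EGF at 1 h and 9.70 and 9.21 CPM with vehicle. The plain row held 23.2% to 31.3% of the IRF9 counts of a library, and the copy row alone rose by 1.80 at 12 h and 1.39 at 24 h on the log2 scale.

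**Figure D3:**
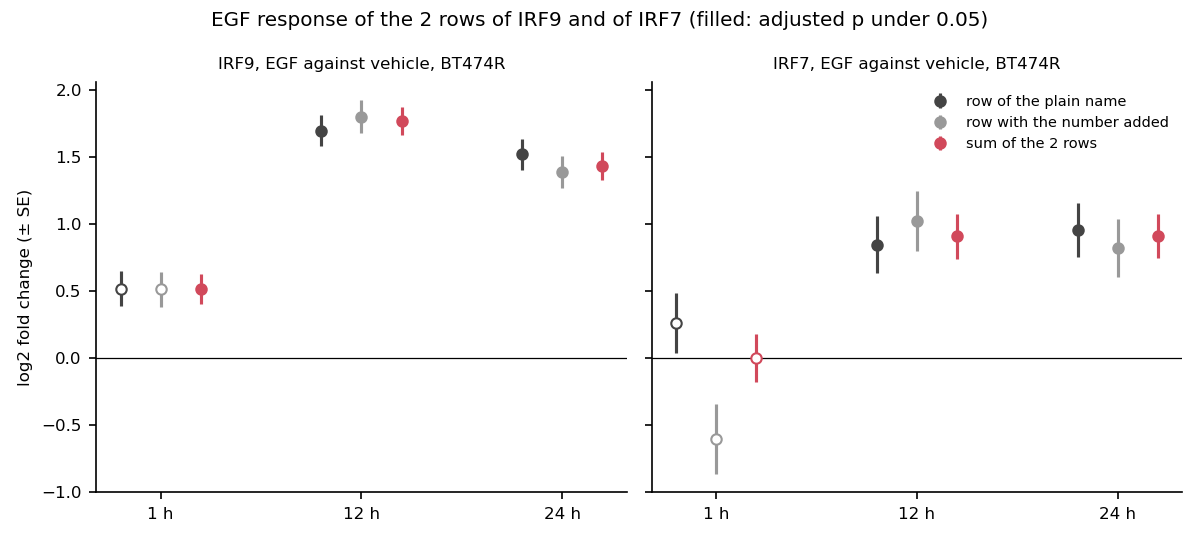
Log2 fold change of EGF over vehicle in BT474R (points, filled where the adjusted p was under 0.05) with its standard error (bars) for the plain row, the copy row and their sum of IRF9 and IRF7, by time. All 3 rows of both genes lie above 0 at 12 h and 24 h, and at 1 h the sum is at 0.52 for IRF9 and 0.00 for IRF7.

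IRF7 (chromosome 11, 612555 to 615950, minus strand), which amplifies type I interferon production and is itself a target of ISGF3, showed a smaller rise. At 12 h it stood at 4.76 and 4.01 CPM in EGF-BT474R and at 2.67 and 2.23 CPM with vehicle, and at 24 h at 5.61 and 5.51 CPM against 2.24 and 3.55 CPM. The EGF libraries lay above the vehicle libraries at both times. The log2 fold change was 0.85 (SE 0.21, adjusted p = 0.01) and 0.96 (SE 0.20, adjusted p = 0.0019). Each call rested on single libraries: at 12 h it was lost without vehicle replicate 2 (0.74, adjusted p = 0.11) or EGF replicate 1 (0.71, adjusted p = 0.15), and at 24 h without vehicle replicate 1 (0.66, adjusted p = 0.076). With the copy row added the values were 0.91 at both times (adjusted p = 0.00075 and 0.00036). At 1 h the sum of both rows differed by 0.00 (SE 0.18).

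In total, EGF called 3 members in BT474R at 12 h, where 12% of all genes were called, and 4 at 24 h, where 17.3% were called. The member added at 24 h was IRF8 (chromosome 16, 85899162 to 85922606, plus strand), a myeloid and B-cell factor that was present at low counts in this carcinoma line, and it fell. Its counts were 17 and 19 in the EGF-BT474R libraries at 24 h, against 39 and 42 with vehicle, or 0.740 and 0.754 CPM against 1.46 and 1.96 CPM. The log2 fold change was -1.18 (SE 0.32, adjusted p = 0.012). At 12 h the EGF libraries held 1.59 and 1.13 CPM, on either side of the vehicle values of 1.29 and 1.27 CPM. The 24 h call was lost without vehicle replicate 2 (-0.97, adjusted p = 0.091), EGF replicate 1 (-1.16, adjusted p = 0.076) or EGF replicate 2 (-1.20, adjusted p = 0.075). The markers of B lymphocytes, summed, stayed at or below 0.318 CPM in BT474R. The sum of 5 myeloid markers, most of it CD68, was 5.05 and 5.55 CPM in the EGF libraries against 2.28 and 2.76 CPM with vehicle, opposite in direction to IRF8, and its part in the result was not tested.

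The other members did not pass the test with EGF in BT474R. IRF3 read 66.4 and 69.0 CPM at 24 h against 62.5 and 57.7 CPM with vehicle (log2 fold change 0.16, adjusted p = 0.073). IRF2 lay between 21.9 and 31.1 CPM and IRF5 between 4.26 and 6.84 CPM in the 6 EGF-BT474R libraries. IRF4 had 10 and 13 counts at 24 h against 7 and 3 with vehicle (log2 fold change 1.18, SE 0.49, adjusted p = 0.11).

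HRG called no member in BT474R by edgeR at any of the 3 times, where 0.169%, 4.12% and 2.78% of all genes were called in order of time. DESeq2 also called 0 at each time, and 0 members had an unadjusted p under the 0.05 threshold. IRF1 stood at 2.72 and 2.87 CPM at 1 h, 2.09 and 1.99 CPM at 12 h and 1.90 and 2.28 CPM at 24 h, within the vehicle values each time. Its fold over vehicle was 0.960 (95% interval 0.671 to 1.37), 1.04 (0.687 to 1.58) and 1.10 (0.705 to 1.71). For IRF9 the fold was 0.938 (0.776 to 1.13), 0.894 (0.745 to 1.07) and 0.959 (0.799 to 1.15), and these intervals leave out the folds seen with EGF at 12 h and 24 h.

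Set against EGF directly, HRG-BT474R was lower for 3 members at 12 h, where 1.42% of all genes were called, and lower for 3 and higher for 1 at 24 h, where 5.18% were called. The ligand doses differed (10 against 50 ng/mL), so ligand and dose cannot be told apart. IRF1 was lower by 3.07 at 12 h and 2.81 at 24 h on the log2 scale (adjusted p = 3.1e-08 and 6.9e-08), with HRG at 1.90 to 2.28 CPM and EGF at 14.0 to 19.8 CPM. IRF9 read 3.69 to 4.44 CPM with HRG and 12.7 to 13.8 CPM with EGF (log2 difference -1.86 at 12 h and -1.58 at 24 h, adjusted p = 2.5e-09 and 8.1e-09). IRF7 differed by -0.90 (adjusted p = 0.03) and -0.83 (adjusted p = 0.015), and IRF8 by 1.26 at 24 h (adjusted p = 0.022). The IRF7 call at 12 h was lost without any 1 of the 4 libraries (adjusted p 0.060 to 0.49), that at 24 h without either EGF library, and that of IRF8 without HRG replicate 1 or either EGF library. When only the groups compared were fitted, all 4 calls at 24 h were lost, with adjusted p of 0.088 for IRF1 and 0.092 for IRF9 and log2 differences of -2.82 and -1.59, and 0 of all genes were then called.

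**Figure D4:**
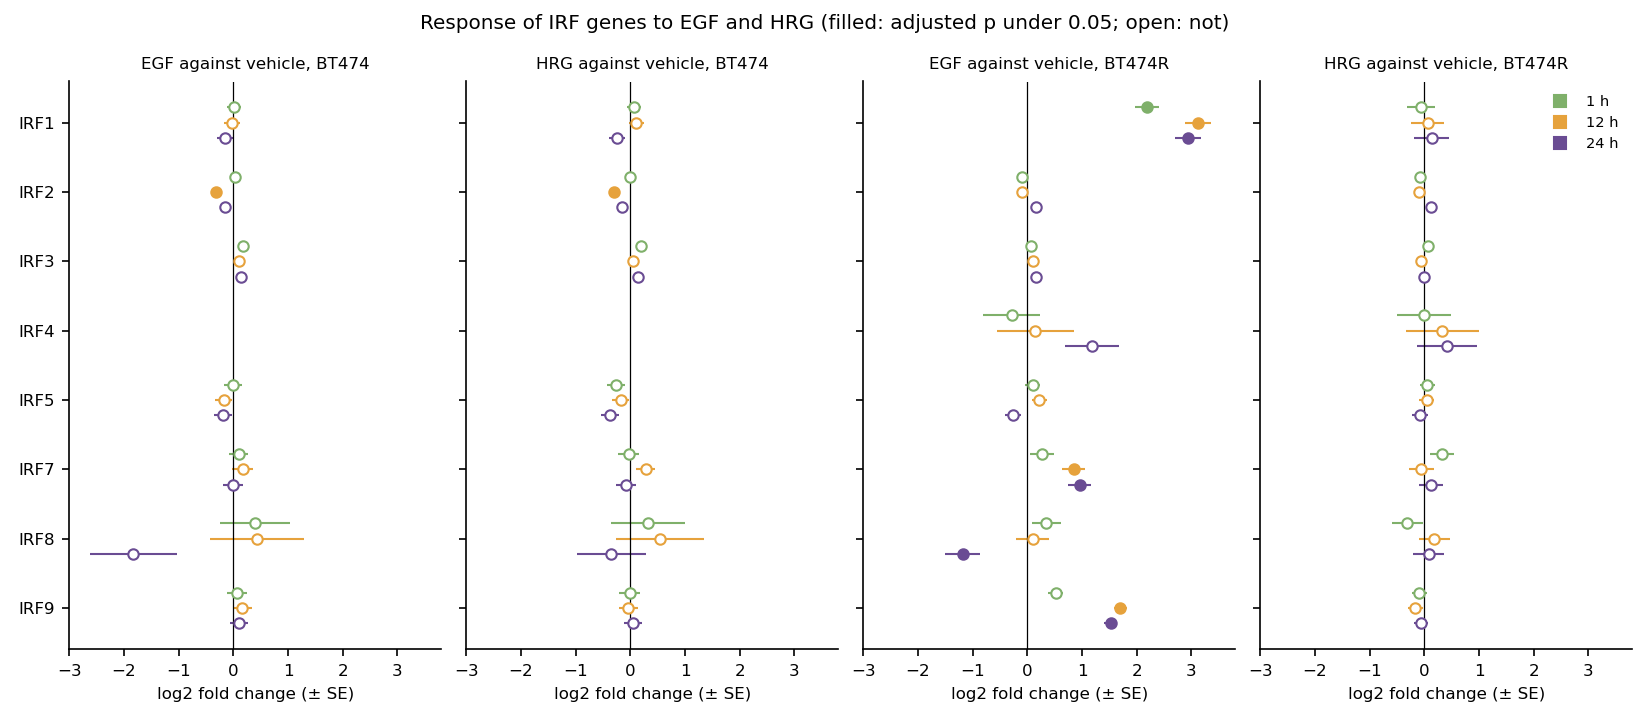
Log2 fold change over vehicle of the same time (points, filled where the adjusted p was under 0.05) with its standard error (bars) for each IRF gene, by ligand, line and time. EGF-BT474R shows IRF1 at 2.18 to 3.13, IRF9 at 1.70 and 1.52 and IRF7 at 0.85 and 0.96 from 12 h, and IRF8 at -1.18 at 24 h. In the BT474 panels the IRF2 points at 12 h are filled, and the bars of IRF8 are wide. IRF4 in BT474 is left out because its counts were near 0.

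In BT474 the member that responded was IRF2 (chromosome 4, 184387729 to 184474550, minus strand), the repressor counterpart of IRF1, and it fell slightly at 12 h with both ligands. It stood at 30.0 and 32.2 CPM with EGF and 30.8 and 32.0 CPM with HRG, against 37.0 and 40.1 CPM with vehicle, with no overlap. The log2 fold change was -0.32 (SE 0.07, adjusted p = 0.0012) with EGF and -0.31 (SE 0.07, adjusted p = 0.00085) with HRG, and both comparisons share the vehicle libraries. IRF2 was the 1 member called in each, where 16% and 25.8% of all genes were called. The EGF call was lost without EGF replicate 1 (-0.26, adjusted p = 0.057). In the untreated and vehicle libraries of BT474 IRF2 itself ranged from 25.0 CPM with vehicle at 1 h to 40.1 CPM with vehicle at 12 h, with 35.1 and 32.5 CPM at T0.

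No member passed the test in BT474 at 1 h, where 2.19% of all genes were called with EGF and 2.77% with HRG, or at 24 h, where 16.4% and 24.1% were called. By edgeR 1 member had an unadjusted p under 0.05 with each ligand at 1 h, and 2 with EGF and 3 with HRG at 24 h, and DESeq2 called 0 in all 4. IRF1 showed no rise over vehicle in BT474: at 1 h it read 8.05 and 7.09 CPM with EGF, 8.25 and 7.49 CPM with HRG and 7.12 and 7.68 CPM with vehicle. IRF9 and IRF7 likewise stayed within 3.33 to 5.25 CPM and 2.45 to 3.69 CPM in all 12 ligand-treated libraries. IRF3 (chromosome 19, 49659572 to 49665857, minus strand) lay above vehicle without overlap in all 6 ligand-treated groups, for example at 51.6 and 52.2 CPM with HRG at 24 h against 44.9 and 47.9 CPM, but the adjusted p was between 0.069 and 0.61. With HRG at 24 h it passed the threshold with filterByExpr or in 1 fit of both lines. IRF8 had 5 and 1 counts with EGF at 24 h against 13 and 8 with vehicle, and missed the threshold (adjusted p = 0.12). HRG and EGF were not told apart for any member in BT474 (0 called by edgeR and by DESeq2, 0 with an unadjusted p under 0.05, at 12 h and 24 h), where 2.17% and 0.768% of all genes differed.

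Vehicle was compared with T0 at 24 h only. Between T0 and vehicle at 24 h, edgeR and DESeq2 called 0 members in either line, while 11.4% of all genes were called in BT474 and 13.7% in BT474R, and the members with an unadjusted p under 0.05 numbered 0 and 1.

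The lines differed before any ligand. At T0, 5 of the 8 members differed between BT474R and BT474, 3 higher and 2 lower, beside 46.9% of all genes, so that differing was common in the whole table. IRF1 was lower in BT474R, at 1.74 and 1.91 CPM against 5.06 and 4.47 CPM in BT474 (log2 fold change -1.36, SE 0.26, adjusted p = 2.9e-05). IRF2 was lower too, at 23.4 and 24.6 CPM against 35.1 and 32.5 CPM (-0.47, SE 0.08, adjusted p = 3e-06). IRF3 was higher in BT474R, at 58.2 and 60.2 CPM against 44.4 and 46.0 CPM (0.42, SE 0.06, adjusted p = 3.2e-07). All of these groups were separate.

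IRF5 (chromosome 7, 128937927 to 128950038, plus strand), which acts below Toll-like receptors, was higher in BT474R by 0.55 (SE 0.17, adjusted p = 0.006), at 4.76 and 5.13 CPM against 3.71 and 3.15 CPM. IRF8 was higher by 1.66 (SE 0.49, adjusted p = 0.0046), from 21 and 34 counts against 15 and 6 counts. Both calls were lost without BT474 replicate 2 (adjusted p = 0.088 and 0.065) or BT474R replicate 2 (adjusted p = 0.069 for each). IRF7 (-0.34, adjusted p = 0.24) and IRF9 (0.34, adjusted p = 0.091) missed the threshold, and with its copy row added IRF9 passed it (0.31, adjusted p = 0.022). Over all 20 libraries of a line, IRF8 ranged from 1 to 16 counts in BT474 (median 0.301 CPM) and from 0.740 to 2.36 CPM in BT474R (median 1.31 CPM).

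IRF4 (chromosome 6, 391752 to 411443, plus strand), the lymphocyte and plasma-cell factor, was at or near the limit of detection. In BT474 it had 0 to 4 counts, with 9 of 20 libraries at 0 and 1 above 3 counts. In BT474R it had 2 to 13 counts, with 16 of 20 libraries above 3 counts and a median of 0.234 CPM. At T0 the counts were 4 and 6 in BT474R and 4 and 0 in BT474, which did not pass the test (adjusted p = 0.14).

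The response to EGF itself differed between the lines for IRF1, IRF9 and, at 24 h, IRF7. The difference of the log2 fold changes, BT474R minus BT474, was 2.14 (SE 0.26, adjusted p = 3.9e-06) for IRF1 at 1 h, where it was the 1 member called beside 0.138% of all genes. At 12 h it was 3.13 (SE 0.29, adjusted p = 2.2e-09) for IRF1 and 1.52 (SE 0.21, adjusted p = 8.5e-06) for IRF9, beside 1.96% of all genes. At 24 h it was 3.09 (SE 0.30, adjusted p = 3e-09) for IRF1, 1.41 (SE 0.21, adjusted p = 1.5e-05) for IRF9 and 0.96 (SE 0.27, adjusted p = 0.032) for IRF7, beside 4.01% of all genes. The IRF7 difference was not called by DESeq2 (adjusted p = 0.073), after thinning to equal depth (0.19), with only the groups compared (0.086), or without either BT474 EGF library, BT474 vehicle replicate 2, BT474R vehicle replicate 1 or either BT474R EGF library (adjusted p 0.063 to 0.29). At 12 h the IRF7 difference was 0.66 (adjusted p = 0.33). For HRG no member's response differed between the lines, where 0.544%, 4.07% and 3.33% of all genes did (in order of time). DESeq2 also called 0 there, and edgeR gave an unadjusted p under 0.05 to 0, 1 and 2 members.

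Partners that IRF proteins bind DNA with also moved in part, and those given here were named after their values were seen. STAT2, a subunit of ISGF3 beside IRF9, read 58.5 and 61.4 CPM in EGF-BT474R at 24 h against 54.4 and 42.9 CPM with vehicle, without overlap. The log2 fold change was 0.29 (SE 0.08, adjusted p = 0.02). BATF, a partner of IRF4 and IRF8, rose by 0.58 in EGF-BT474R at 12 h (SE 0.19, adjusted p = 0.047). In BT474 it rose at 24 h by 0.28 with EGF (adjusted p = 0.028) and 0.31 with HRG (adjusted p = 0.0097). In BT474, STAT2 fell from 76.2 and 78.5 CPM with vehicle to 52.0 and 54.5 CPM with EGF at 12 h. With HRG in BT474R at 12 h the log2 fold change of STAT2 was -0.36 (adjusted p = 0.016).

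Of 9 interferon receptors and JAK kinases, which act above the family, 2 rose and 1 fell with EGF in BT474R at 12 h (IFNGR1 and IFNGR2 up, JAK1 down) and 2 rose at 24 h (IFNGR1 and IFNAR2), named after their values were seen, of which IFNGR1, a chain of the interferon gamma receptor, rose by 0.40 (adjusted p = 0.0021) and 0.36 (adjusted p = 0.0033). The background over all genes was 6.85% up and 5.13% down at the earlier of these times, then 9.95% up and 7.37% down. JAK2, a kinase of that receptor, had 36 to 91 counts in BT474 libraries and 0 to 9 in those of BT474R, where it was near the limit of detection. None of the 22 interferon genes in the table exceeded 4 counts in any library, and IFNB1 and IFNG had at most 1 and 0 counts.

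Among sensors, adaptors and kinases that activate IRF3, IRF5 and IRF7, 3 of 18 rose and 1 fell with EGF in BT474R at 12 h, while the 24 h counts were 3 and 2. Called genes of this list came to 4 of 18 and 5 of 18, where 12% and 17.3% of all genes were called. IFIH1, a sensor of double-stranded RNA, rose from 12.6 and 12.3 CPM to 25.4 and 22.9 CPM at 12 h (log2 fold change 0.95, adjusted p = 7.3e-07) and by 0.98 at 24 h (adjusted p = 2.2e-07). TLR4, a receptor for bacterial lipopolysaccharide, fell by 0.67 (adjusted p = 0.036) and by 1.20 on the log2 scale (adjusted p = 0.00026). The others called, DDX58 and SLC15A4 up at 12 h, and SLC15A4 and TRAF3 up and MAVS down at 24 h, were named after their values were seen. Of 3 IRF2-binding corepressors, IRF2BP2 rose in EGF-BT474R by 0.27 (adjusted p = 0.00056) at 12 h and 0.30 (adjusted p = 0.00015) at 24 h. In BT474 its rise at the same times was 0.32 and 0.56 for EGF, then 0.39 and 0.67 for HRG, and the EGF effect at 24 h was lower in BT474R than in BT474 (-0.27, adjusted p = 0.0056). IRF2BPL fell by 0.17 and 0.22 on the log2 scale with EGF in BT474 at 12 h and 24 h (adjusted p = 0.01 and 0.0013).

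Genes known as targets of ISGF3 rose with EGF in BT474R at the times when IRF9 did. Of 27 tested, 18 rose and 0 fell at 12 h (median log2 fold change 1.90, against -0.01 over all genes, of which 6.85% rose), and at 24 h 18 calls were upward and 2 downward (median 1.81, against -0.01). Of all genes, 9.95% rose and 7.37% fell at 24 h. At 1 h the ISGF3-linked median was -0.02. IFIT3, whose product restrains virus replication, went from 1 count in each vehicle library to 159 and 116 counts at 12 h. OAS1, an activator of RNase L, read 7.94 and 7.03 CPM at 12 h against 0.978 and 0.961 CPM (log2 fold change 2.94, adjusted p = 2.3e-08), and IFIT2 10.8 and 10.2 CPM at 24 h against 0.374 CPM in each vehicle library (4.79, adjusted p = 7.7e-11). The 2 that fell at 24 h were MX2 (-0.33) and USP18 (-0.39), named after their values were seen.

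Genes linked to IRF1 showed the same timing although IRF1 was already high at 1 h. Of 14 tested in BT474R, 6 rose at 12 h (median 0.56) and 8 at 24 h (median 0.80) and 0 fell, and at 1 h the median was 0.03. Of all genes, 6.85% rose at 12 h and 9.95% at 24 h. GBP1, a guanylate-binding protein of cell-autonomous immunity, had 0 counts in each vehicle library and 108 and 71 counts with EGF at 12 h. NLRC5, an activator of MHC class I genes, read 7.15 and 4.95 CPM against 0.978 and 1.03 CPM (2.58, adjusted p = 2.6e-08), and TAP1, a peptide transporter of antigen presentation, 6.67 and 5.71 CPM against 2.53 and 3.12 CPM (1.11, adjusted p = 4.4e-05). In BT474 EGF raised 0 and lowered 3 of 29 ISGF3-linked genes at 12 h (PARP9, DTX3L and HERC6, named after their values were seen), with a median of 0.02, where 9.04% of all genes rose and 6.99% fell. With HRG in BT474R the ISGF3-linked median was -0.13 at 12 h and -0.09 at 24 h, with 1 gene down each time (DTX3L, then HERC6, named after their values were seen). Of IRF1-linked genes, 1 of 14 rose with HRG in BT474R at 12 h (GBP2), where 2.38% of all genes did. In BT474, GBP2 rose with both ligands at 1 h and 24 h, although IRF1 was not called. Of 17 tested there, 1 rose with EGF at 1 h, 0 at 12 h and 1 at 24 h, while 0, 3 and 2 fell. With HRG 2, 0 and 1 rose and 1, 5 and 4 fell. Of all genes, 2.19%, 16% and 16.4% were called with EGF and 2.77%, 25.8% and 24.1% with HRG. Both lists were chosen with earlier results of these libraries known and overlap in biology, so their counts describe the data and do not separate IRF1 from IRF9.

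**Figure D5:**
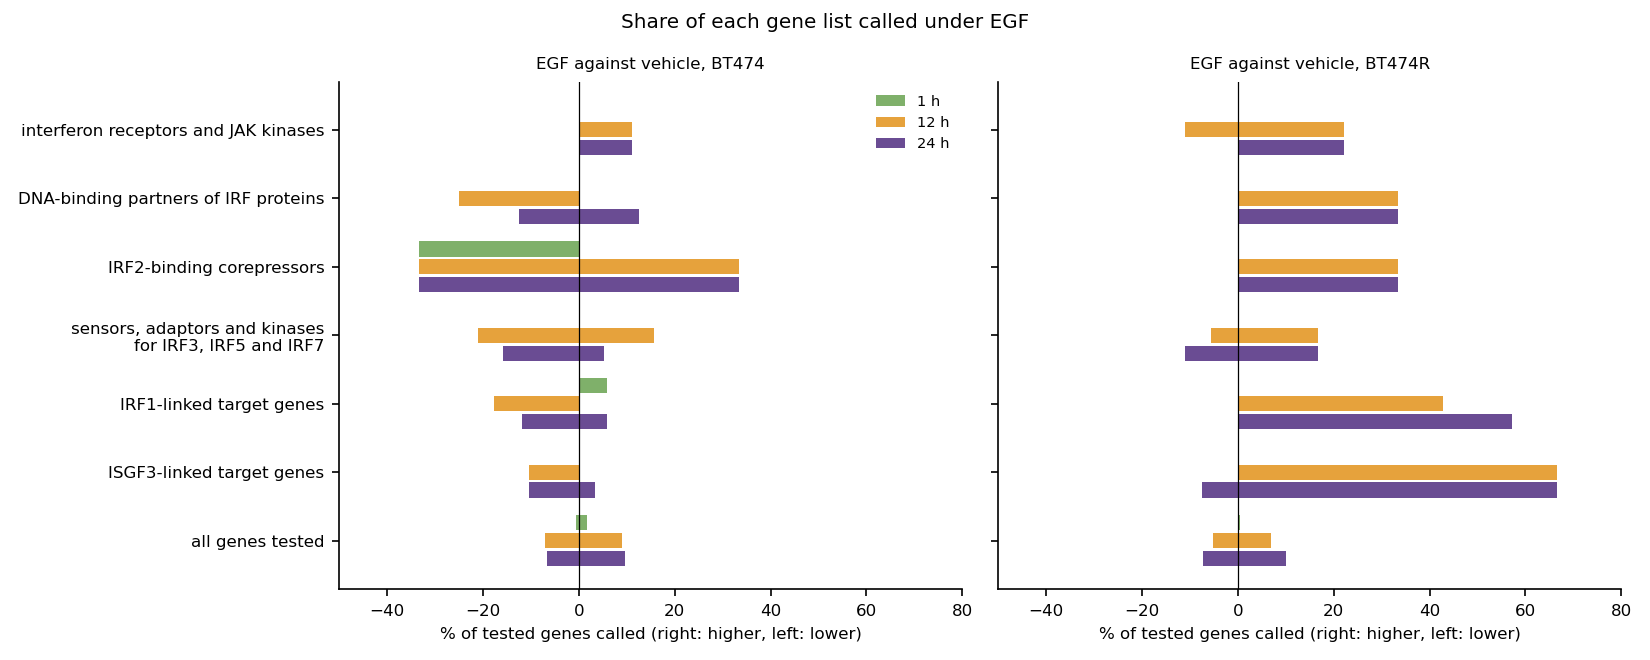
Percent of the tested genes of each list, and of all genes, that rose (right of 0) or fell (left of 0) with EGF in BT474 and BT474R, by time. The ISGF3-linked list (18 of 27 genes up at 12 h) and the IRF1-linked list (6 of 14) stand above all genes in BT474R at 12 h and 24 h.

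At T0 these target lists lay lower in BT474R: 14 of 28 ISGF3-linked genes were lower and 3 higher (median log2 fold change -0.99), and 11 of 17 IRF1-linked genes were lower and 2 higher (median -1.12), against a median of 0 over all genes. Of all genes, 21.7% were lower and 25.1% higher. The EGF response differed between the lines for 13 of 28 ISGF3-linked genes at 12 h and 17 of 28 at 24 h, where 1.96% and 4.01% of all genes did, and of the 17 the log2 fold change was higher in BT474R for 16.

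Of the genes beside the members in the genome, REC8, after IRF9, rose with EGF in BT474R at 24 h (log2 fold change 0.95, adjusted p = 0.0041), while RNF31, before it, showed 0.29 at 12 h and 0.28 at 24 h (adjusted p = 0.057 and 0.054). The EGF effect on RNF31 differed between the lines at 24 h (0.40, adjusted p = 0.048). For REC8 that difference did not pass the test (0.45, SE 0.39, adjusted p = 0.68). PHRF1, at lower coordinates than the minus-strand gene IRF7 and so past its end, rose by 0.24 at 24 h (adjusted p = 0.021). IRF1-AS1, on the opposite strand and likewise past the end of IRF1, had 0 to 8 counts. It did not pass the test (adjusted p = 0.067 at 24 h). BCL2L12 overlaps IRF3 on the opposite strand and differed between the lines at T0 by 0.14 (adjusted p = 0.23). The strand setting of the counting is not given in the sources used here, so reads of such a pair cannot be told apart.

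Over the 20 groups, the gene whose mean log2 CPM followed a member most closely was ANTXR2 for IRF1 (Pearson r = 0.80), AKAP5 for IRF2 (0.93), GNE for IRF3 (0.96), MMP11 for IRF5 (0.92) and IFIT2 for IRF7 (0.89), among 13899 genes. For IRF7 the next were APOL6 and NLRC5 (0.85 each). IRF9 had an r of 0.90 with OAS1 and 0.84 with C4A. Within the 10 BT474R groups alone the r of IRF9 with OAS1 was 0.92, and within the BT474 groups -0.09. The r of IRF7 with IFIT2 was 0.93 and 0.51 in the same order, and that of IRF5 with MMP11 was 0.69 and 0.68. For IRF1 with ANTXR2 it was 0.81 and 0.83, for IRF2 with AKAP5 0.92 and 0.90, and for IRF3 with GNE 0.84 and 0.91. Groups of a line share its genotype and their times, so the points are not independent.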

How the data were processed

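Raw counts per gene were deposited by the authors as 1 table of 40 libraries from paired-end reads of polyadenylated RNA. Per the labels and the study's methods, reads were trimmed with Trim Galore 0.6.6, aligned to GRCh38.p13 and counted per gene with featureCounts. The annotation release, strand setting and treatment of multi-mapping reads are not given in the sources used here. The counts were normalized with TMM and tested with edgeR 4.0.16 (glmQLFit, glmQLFTest; R 4.3.3) in 1 fit per line, with all 20 libraries, leaving out genes that had no count in over 50% of its libraries. Comparisons between lines used 1 fit of 40 libraries. The genes tested numbered 25146 in BT474, 24287 in BT474R and 24641 in both. A gene was called at a Benjamini-Hochberg adjusted p below 0.05 over all genes tested. CPM values are TMM-scaled, fold intervals are 95% by a normal approximation on the log2 scale, and counting limits cover counting error only. Lengths and gene positions came from GENCODE v44 and promoters from RefSeq. The scripts were tested on simulated data. Alternatives were DESeq2 1.42.0, other filters and scaling, thinning, a replicate block and leaving out each library. Summing copy rows, a block within time points and the length scale were added after the data were seen.

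The members and gene lists were chosen with earlier results of these data known. Every member is reported. From each list, up to 4 called genes with the largest change and a mean of at least 1 CPM in a line were eligible to be named, together with the 3 genes most like each member (mean of at least 1 CPM) and the neighbours of called members. Others are marked as named after their values were seen. Some genes of the lists are not reported here.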

Additional observations from a re-analysis of the deposited data

Results flagged for a closer look

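The EGF response, as the log2 fold change over vehicle of the same time, differed between BT474R and BT474 by edgeR's interaction test for 3 members. For IRF1 the difference was 2.14 at 1 h, 3.13 at 12 h and 3.09 at 24 h. For IRF9 it was 1.52 at 12 h and 1.41 at 24 h. For IRF7 it was 0.96 at 24 h, and that call depended on the tool and on single libraries. In each case both EGF-BT474R libraries lay above both vehicle libraries of that line. IRF1 started from a lower level in BT474R at T0, and the part of that difference in the response was not tested.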

How the results depend on the processing

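Of 394 recomputed single-gene values, 358 kept their side of the threshold and 36 lost it, and the number of members called moved in several comparisons. No value changed direction. With copy rows summed, HRG-BT474 at 1 h gave 1 member (IRF3) in place of 0, as did a replicate block within each time point, and EGF-BT474R at 1 h gave 2 in place of 1. At 24 h EGF-BT474 gave 1 without a filter on low counts (IRF8), and HRG-BT474 gave 1 with filterByExpr or 1 fit of both lines (IRF3) and 2 with the block within time points (IRF2 and IRF3), each in place of 0. With only the groups compared, HRG against EGF in BT474R at 24 h gave 0 in place of 4, and over all genes 0 in place of 1258. The cause of these changes was not tested. Leaving out 1 library at a time, the member count ranged from 0 to 1 for EGF-BT474 at 12 h and at 24 h and HRG-BT474 at 24 h, 2 to 4 for HRG against EGF in BT474R at 24 h, and 3 to 6 between the lines at T0. In fits without a library the remaining one of its group is assumed to vary like the other groups, and fits of both lines kept the dispersion trend of all 40 libraries.

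IRF1 and IRF9 kept their calls with EGF over vehicle in BT474R at 12 h and 24 h under all alternatives and without any 1 library, as did IRF1 at 1 h. Same-numbered libraries correlated in their deviations from group means at -0.0939 to -0.0142 at 1 h, -0.0477 to 0.0868 at 12 h and 0.0166 to 0.384 at 24 h. They thus deviated together in part at 24 h, which is a hint from the data and not from the labels, and the replicates are treated as sharing only a number. Fitting the replicate block left the member counts as they were in all 25 comparisons, for example 3 with EGF in BT474R at 12 h, 4 at 24 h and 5 between the lines at T0. A block within time points was not possible for T0. The planned scaling by RefSeq transcript length was not run, because the table used holds no such length. On the GENCODE length scale the plain row of IRF9 ranked above IRF1 over all libraries, and without length below it (means of 5.01 and 5.89 CPM). The copy row of IRF9, left out of this ranking, alone read at least 8.06 CPM in BT474 and 9.21 CPM in BT474R.

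Over all genes, the count called moved by more than 1.5 times under some alternative, mostly with only the groups compared or with no filter. The count as reported, with its lowest and highest alternative, was 550 (240 to 769) for EGF over vehicle in BT474 at 1 h, 545 (259 to 1242) for HRG over EGF in BT474 at 12 h, 193 (12 to 429) for HRG over EGF in BT474 at 24 h, 111 (99 to 279) for EGF over vehicle in BT474R at 1 h, 41 (36 to 151) for HRG over vehicle in BT474R at 1 h, 2910 (2498 to 5176) for EGF over vehicle in BT474R at 12 h, 1000 (566 to 1606) for HRG over vehicle in BT474R at 12 h, 675 (0 to 1147) for HRG over vehicle in BT474R at 24 h, 345 (239 to 628) for HRG over EGF in BT474R at 12 h, 1258 (0 to 1710) for HRG over EGF in BT474R at 24 h, 34 (29 to 178) for EGF effect between the lines at 1 h, 134 (120 to 225) for HRG effect between the lines at 1 h, 484 (333 to 1282) for EGF effect between the lines at 12 h, 1003 (694 to 2066) for HRG effect between the lines at 12 h, 989 (553 to 1107) for EGF effect between the lines at 24 h and 821 (85 to 977) for HRG effect between the lines at 24 h.
Depth limits IRF4 in both lines and IRF8 in BT474, where a few counts decide each value.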

Other observations

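In BT474, IRF1 read 7.12 and 7.68 CPM with vehicle at 1 h, above 5.06 and 4.47 CPM at T0, and IRF2 read 25.0 and 27.4 CPM against 35.1 and 32.5 CPM. In BT474R, IRF1 read 2.02 and 3.70 CPM and 1.74 and 1.91 CPM in the same order. IRF9 in BT474R read 3.58 and 3.21 CPM with vehicle at 1 h, below 4.71 and 5.31 CPM at T0. These differences between vehicle at 1 h and T0 were not tested.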
